A study of Mus musculus with 3 samples.

Results

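Toll-like receptors are membrane proteins with which cells of the innate immune system and B cells sense microbial molecules and nucleic acids. The 10 genes described here are 8 mouse receptors of this family, the coreceptor Cd14 and the adaptor Myd88, taken by name from the 32285 genes that the deposited matrices list. Of the receptors, 3 act at the cell surface (Tlr1, Tlr2 and Tlr4) and 5 in endosomes (Tlr3, Tlr7, Tlr8, Tlr9 and Tlr13). They were followed across cell classes, subsets and libraries of immune cells from the mouse aorta.

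The labels give all mice, controls included, as ApoE-/- on the C57BL/6J background, so that no group is labelled wild type. The first group was the control, labelled with no further treatment. The second, labelled HHcy, drank water with homocysteine at 1.8 g/L for 4 weeks, and the third, labelled WD, ate a western diet for 4 weeks. The series title speaks of homocysteinemia-accelerated atherosclerosis. Age and sex of the mice, and how many were pooled per library, are not given in the sources used here. Whole aortas with their adventitia were perfused and digested with enzymes, live CD45+ nucleated cells were sorted, and each group gave 1 droplet single-cell library. CD45 is the protein of Ptprc, the common leukocyte antigen. With 1 library per group no difference between groups could be tested, and the treatment cannot be told apart from the library.

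As background, TLR2 pairs with TLR1 or TLR6 to bind bacterial lipoproteins. TLR4, with MD-2 (Ly96), binds lipopolysaccharide that CD14 delivers. TLR3 binds double-stranded RNA, TLR7 and TLR8 bind single-stranded RNA and its breakdown products, TLR9 binds DNA with unmethylated CpG, and TLR13 binds a stretch of bacterial ribosomal RNA. Mouse TLR8 responds weakly to the ligands of its human counterpart. MYD88 carries the signal of all of these receptors except TLR3, which uses TRIF (Ticam1), and TLR4 uses both adaptors. The endosomal receptors need the chaperone UNC93B1 to leave the endoplasmic reticulum. In atherosclerosis, TLR2 and TLR4 on macrophages and TLR7 and TLR9 in B cells and dendritic cells have been studied most.

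In the mm10 assembly (GRCm38, annotation of GENCODE M21), the surface receptors lie on separate chromosomes. Tlr1 (ENSMUSG00000044827) occupies chr5:64924679-64933563, Tlr2 (ENSMUSG00000027995) chr3:83836272-83841767 and Tlr4 (ENSMUSG00000039005) chr4:66827584-66930284. Of the endosomal receptors, Tlr7 (ENSMUSG00000044583, chrX:167304929-167330558) and Tlr8 (ENSMUSG00000040522, chrX:167242696-167264329) are neighbours on the X chromosome, which also carries Tlr13 (ENSMUSG00000033777, chrX:106143204-106160493). Tlr3 (ENSMUSG00000031639) lies at chr8:45395665-45411080 and Tlr9 (ENSMUSG00000045322) at chr9:106222598-106226883. The adaptor gene Myd88 (ENSMUSG00000032508) lies at chr9:119335934-119341411. Tlr1 has a close paralog beside it, Tlr6 (chr5:64952031-64960097), and reads that match both genes could have been lost or split by the counting.

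RefSeq promoter windows of the same assembly (GRCm38.p6) matched 7 of the 10 genes by symbol. They are shown for Tlr1, Tlr2 and Myd88 because these held a match to a motif of a factor of this pathway or of myeloid and B cells, and because the 3 genes differ in where they were detected. The stretches of Tlr1 and Tlr2 lie upstream of the gene spans given above. That of Myd88 lies inside the span given above, downstream of the start in that annotation, because RefSeq places the start further in. All are on the minus strand, written 5′ to 3′, and capitals mark the match.
Tlr1, chr5:64933564-64933683: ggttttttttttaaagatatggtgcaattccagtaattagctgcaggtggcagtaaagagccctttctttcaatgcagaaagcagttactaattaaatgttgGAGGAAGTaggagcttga
Tlr2, chr3:83841768-83841858: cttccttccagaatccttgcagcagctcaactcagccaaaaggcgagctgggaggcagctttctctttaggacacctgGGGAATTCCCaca
Myd88, chr9:119340042-119340161: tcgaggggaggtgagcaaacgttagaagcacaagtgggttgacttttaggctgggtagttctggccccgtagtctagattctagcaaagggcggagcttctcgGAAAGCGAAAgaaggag

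The capitals are, in Tlr1, GAGGAAGT, a binding motif of PU.1, 23 to 16 bases before the RefSeq start. In Tlr2 they are a palindrome of NF-kB, GGGAA followed by its reverse complement TTCCC, 172 to 163 bases before the start. In Myd88 they match the interferon-stimulated response element, written as GAAA, 2 bases of any kind and GAAA again, 40 to 31 bases before the start. On both strands of the 250 bases before the start, the PU.1 letters were present in 2.44% of 32851 RefSeq windows, the NF-kB palindrome in 0.0335% and the response element in 2.98%. The windows of Tlr3, Tlr8, Tlr9 and Tlr13, and the other RefSeq window of Tlr1, held none of these letters. The 3 motifs share no bases in these windows, and a match describes letters and shows no binding.

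The 3 libraries held 7512 (control), 9753 (HHcy) and 8557 (WD) barcodes with 66789257, 105180370 and 93164076 unique molecular identifiers (UMIs, each counting 1 captured molecule). After limits on detected genes and mitochondrial UMIs and after barcodes with markers of more than 1 lineage were left out, 5308, 6281 and 5257 cells were used, with median depths of 7462.5, 6655 and 8043 UMIs. The barcodes left out as multiplets made up 12.1% of those within the limits in the control library, 23.0% in the HHcy library and 21.7% in the WD library. Libraries shared 20 to 24 barcode sequences by pair. Ptprc was present in all 3 at 636 to 745 counts per 1000000 UMIs (CPM).

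Apoe, the gene that the genotype disrupts, had 16.3 CPM in the control library, 374 CPM in the library labelled HHcy and 19.3 CPM in the WD library. Whether the counted 3′ end lies in the disrupted part is not given in the sources used here, so these UMIs do not test the genotype, but the library labelled HHcy stood apart in them. Whether every mouse of that library had the labelled genotype cannot be told from these files, and this holds for each HHcy value below. Its macrophages and monocytes had 1173 CPM of Apoe, against 28.9 and 26.7 CPM in the other libraries. Within that class, 188 HHcy cells had at least 10 Apoe UMIs and 1020 had fewer. In these 2 sets of cells Tlr4 had 39.6 and 21.8 CPM, Tlr1 4.28 and 20.3 CPM, Myd88 55.1 and 83.2 CPM, and Cd14 1033 and 1031 CPM. All cells with at least 10 Apoe UMIs were then left out, among macrophages and monocytes 1 control, 188 HHcy and 2 WD cells. The 80 ratios, endosomal shares and counts of members recomputed stayed within the counting interval of the value given below, or within 1.5 times it for a count. In neutrophils the HHcy log2 ratios of Cd14 and Tlr13 were identical with and without this limit, at 0.66 and 0.61, so it put neither to a test. The WD ratios of macrophages and monocytes could hardly move either, since few control and WD cells were left out. Cells that hold little Apoe pass this limit whatever their genotype, so it cannot settle the genotype.

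Cells were clustered without the 10 genes and without the other Toll-like receptors, and clusters were named from marker lists. Of the 12 classes named, 5 had at least 50 cells in each library and are compared: B-like cells (2180 in the control, 3602 in the HHcy and 1190 in the WD library), macrophage- and monocyte-like cells (1980, 1208 and 2668), conventional-dendritic-like cells (438, 264 and 379), neutrophil-like cells (191, 412 and 265) and T-like cells (71, 130 and 81). For short, they are called B cells, macrophages and monocytes, dendritic cells, neutrophils and T cells. Where 3 values follow each other, they are those of the control, HHcy and WD libraries, in this order. Levels are CPM, taken within a class (its counts of a gene per 1000000 of its UMIs), with exact 95% Poisson intervals. Since each molecule is counted once at its 3′ end, CPM needs no correction for gene length when genes are set side by side, although genes can differ in capture. All intervals cover counting error only.

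**Figure D1:**
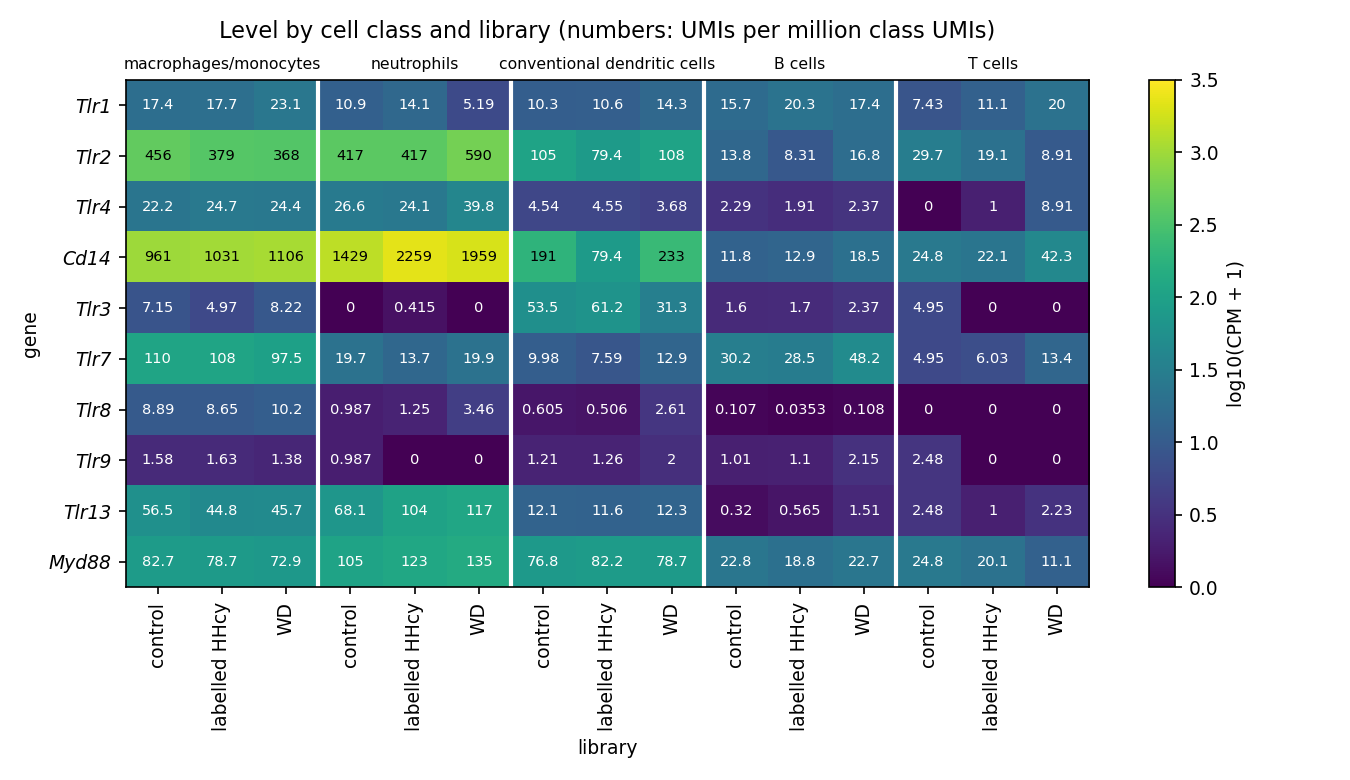
Level of each of the 10 genes (rows) in each of 5 cell classes and 3 libraries (columns), with CPM printed in the cells and a colour scale in log10(CPM + 1). Yellow is high and purple low, and class names stand for clusters named from markers; Cd14 and Tlr2 are highest in macrophages/monocytes and neutrophils, Tlr3 in conventional dendritic cells, and Tlr7 in macrophages/monocytes followed by B cells.

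Tlr2 was the surface receptor with the highest level in these cells. In macrophages and monocytes it had 456 CPM (95% interval 446 to 466) in the control, 379 (368 to 390) in the HHcy and 368 (362 to 375) in the WD library, and a UMI of it was found in 78.3%, 74.6% and 79.5% of the cells. Neutrophils reached 417, 417 and 590 CPM. The 2 myeloid classes thus stood far above the rest, with dendritic cells at 105, 79.4 and 108 CPM and B cells at 13.8, 8.31 and 16.8 CPM. In T cells 4 to 19 UMIs gave 8.91 to 29.7 CPM. B cells were below T cells in the control and HHcy libraries and above them in the WD library. There the T cell interval (2.43 to 22.8 CPM) covered the B cell level. Whether the Tlr2 UMIs of B and T cells came from other cells was not tested. The share of cells with a Tlr2 UMI was 10.7%, 6.3% and 11.8% in B cells (median depth 7374, 6386.5 and 6500 UMIs) and 15.5%, 13.1% and 4.94% in T cells (4781, 6517 and 4627 UMIs).

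Within macrophages and monocytes, Tlr2 was highest in the classical-monocyte-like cells of the control and WD libraries (661 and 577 CPM) and lower in resident-macrophage-like cells, at 347, 226 and 258 CPM. The classical-monocyte-like cells of the HHcy library had 473 CPM, below its non-classical-monocyte-like cells at 530 CPM (95% intervals 448 to 500 and 500 to 562). Non-classical-monocyte-like cells had 607 CPM (control) and 413 CPM (WD). Foamy-macrophage-like cells, named from a marker list that holds Trem2, Gpnmb and Mmp12, had 376, 388 and 414 CPM, a narrower range than these 3 subsets. Of them, 893 were in a cluster led by Nes, Mmp12 and Cd72, with no other marker of the list among its 10 leading genes, and 424 in one led by Fabp5, Gpnmb and Cxcl3.

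Tlr4, the lipopolysaccharide receptor, was an order lower. It had 22.2 CPM (20.1 to 24.5), 24.7 (21.9 to 27.7) and 24.4 (22.7 to 26.3) in macrophages and monocytes and 26.6, 24.1 and 39.8 CPM in neutrophils. In dendritic cells the level was 3.68 to 4.55 CPM and in B cells 1.91 to 2.37 CPM. Among the myeloid subsets the order differed from that of Tlr2. Resident-macrophage-like cells led in every library, at 59.3, 62.1 and 50.9 CPM of Tlr4, against 19.7, 23.1 and 20.5 CPM in foamy-macrophage-like cells, 14.8, 10.4 and 11.4 CPM in classical-monocyte-like cells and 6.69, 3.32 and 8.09 CPM in non-classical-monocyte-like cells. The intervals of the resident-macrophage-like cells (lowest bound 45.3 CPM) did not overlap those of the other 3 subsets (highest bound 30.7 CPM).

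Tlr1, the partner of TLR2, was the surface receptor that B cells and macrophages had at similar levels. Macrophages and monocytes had 17.4, 17.7 and 23.1 CPM, B cells 15.7, 20.3 and 17.4 CPM, dendritic cells 10.3, 10.6 and 14.3 CPM and neutrophils 10.9, 14.1 and 5.19 CPM. As a percentage of the macrophage level, Tlr1 in B cells came to 89.9%, 115% and 75.5%. The macrophage markers, taken the same way, had a median of 1.57%, 1.31% and 1.91% in B cells, below that of Tlr1. In T cells 3, 11 and 9 UMIs gave 7.43, 11.1 and 20.04 CPM of Tlr1, or 42.6%, 62.3% and 86.7% of the macrophage level, and the intervals of B and T cells overlapped in each library. Inside the B cells it was low in B1-like cells (8.17, 13.3 and 10.4 CPM) and higher in immature-like (25.5, 31.5 and 21.5 CPM) and naive-follicular-like cells (33.3, 23.0 and 26.5 CPM). The promoter stretch of Tlr1 shown above holds the letters of a PU.1 motif, and its part in these levels was not tested.

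Cd14 (ENSMUSG00000051439), a short gene at chr18:36725067-36726798, had the highest level of the 10 genes. Neutrophils had 1429 CPM (1356 to 1505), 2259 (2199 to 2319.8) and 1959 (1879 to 2041), above macrophages and monocytes with 961 (947 to 976), 1031 (1013 to 1049.7) and 1106 (1094 to 1118). In every library the neutrophil interval lay above that of the macrophages. Dendritic cells had 191, 79.4 and 233 CPM, and B cells 11.8, 12.9 and 18.5 CPM, which is 1.23%, 1.25% and 1.68% of the macrophage level and so within the range of the macrophage markers in B cells. T cells had 22.1 to 42.3 CPM. In B and T cells the Cd14 UMIs can therefore not be told apart from RNA of other cells.

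Among macrophages and monocytes, Cd14 was highest in foamy-macrophage-like cells in the control (1454 CPM) and WD libraries (1478 CPM), and in the HHcy library these had 1292 CPM beside 1335 CPM in classical-monocyte-like cells. Classical-monocyte-like cells of the control and WD libraries had 1285 and 1219.7 CPM. Resident-macrophage-like cells had 919, 933 and 919 CPM, and non-classical-monocyte-like cells 448, 457 and 379 CPM. The order of these subsets for Cd14 was thus unlike that for Tlr4, whose highest cells ranked below the foamy-macrophage-like cells for Cd14.

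**Figure D2:**
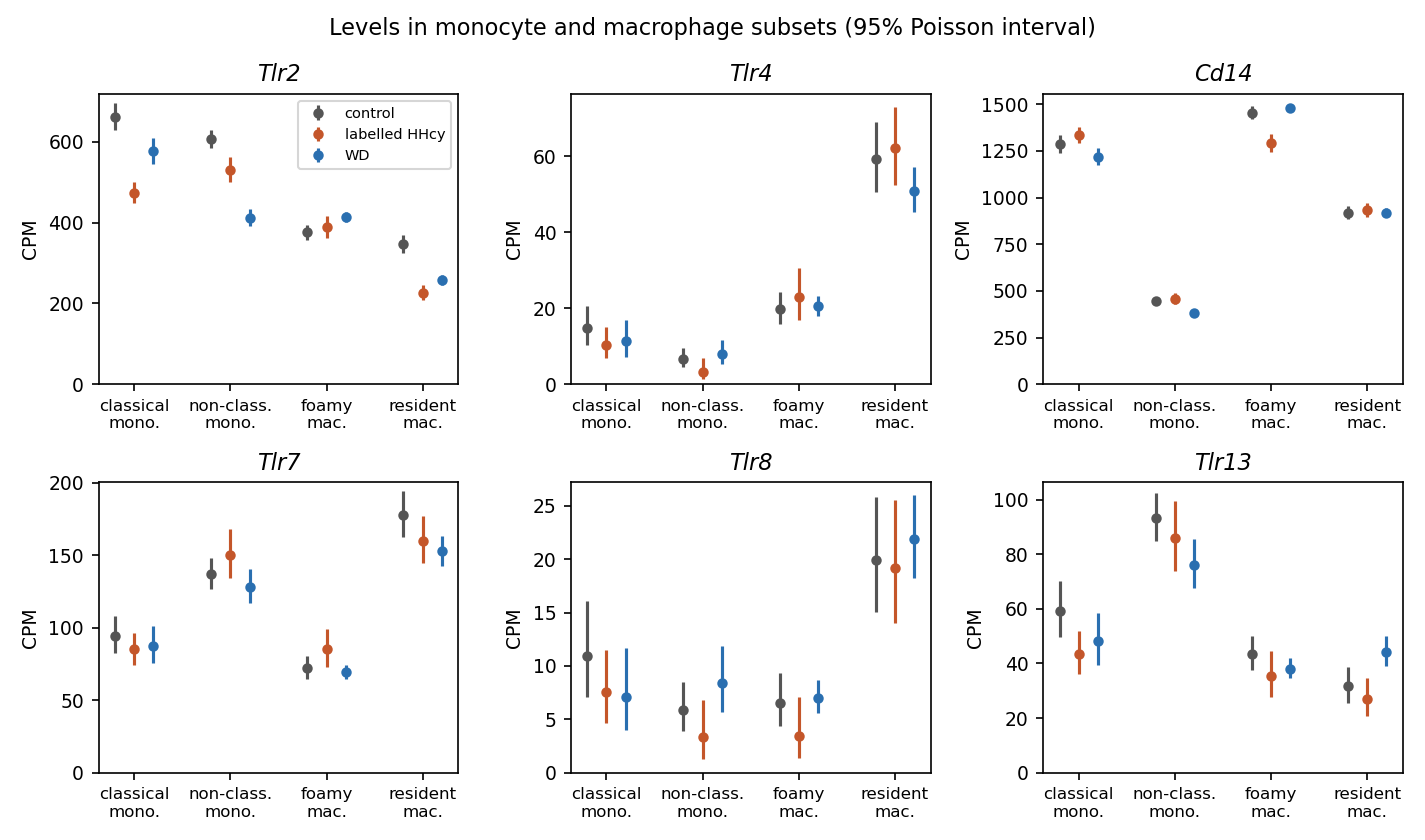
Levels in CPM with 95% Poisson intervals of members in the monocyte-like and macrophage-like subsets, with 1 point per library. Tlr4, Tlr7 and Tlr8 are highest in resident-macrophage-like cells, Tlr13 in non-classical-monocyte-like cells, and Cd14 lowest in non-classical-monocyte-like cells in all 3 libraries. For Tlr7 in the HHcy library, the intervals of resident-macrophage-like and non-classical-monocyte-like cells overlap.

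Of the endosomal receptors, Tlr7 was the most abundant. In macrophages and monocytes it had 110 CPM (105 to 115), 108 (102 to 114) and 97.5 (93.9 to 101), and 50.8%, 53.8% and 54.2% of the cells held a UMI of it. B cells came next among the compared classes, at 30.2 CPM (27.7 to 32.7), 28.5 (26.5 to 30.5) and 48.2 (43.9 to 52.9), followed by neutrophils at 13.7 to 19.9 CPM, dendritic cells at 7.59 to 12.9 CPM and T cells at 4.95 to 13.4 CPM. The intervals of neutrophils and dendritic cells overlapped in each library. Tlr7 in B cells was 27.4%, 26.3% and 49.5% of the macrophage level, above the highest macrophage marker there (21.2%, 16.4% and 20.2%).

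Plasmacytoid-dendritic-like cells, a cell type known for Tlr7, were too few to compare (3, 35 and 7 cells). Their 48 Tlr7 UMIs in the HHcy library came to 116 CPM, and 4 and 19 UMIs gave 152 and 230 CPM in the control and WD libraries. Among the macrophage subsets Tlr7 was highest in resident-macrophage-like cells at 178, 160 and 153 CPM. Non-classical-monocyte-like cells followed at 137, 150 and 128 CPM, and in the HHcy library the intervals of both overlapped. Classical-monocyte-like cells had 94.6, 85.1 and 87.6 CPM. Foamy-macrophage-like cells had 72.1, 85.4 and 69.7 CPM, and in the HHcy library they did not differ from the classical-monocyte-like cells beyond counting error.

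Tlr8, the neighbour of Tlr7, was nearly restricted to macrophages and monocytes, which held 95.2%, 94.4% and 93.0% of its UMIs among the named cells. The level was 8.89, 8.65 and 10.2 CPM there and at most 3.46 CPM in the 4 other compared classes. B cells, with their Tlr7 level of 28.5 to 48.2 CPM, held 2, 1 and 1 UMIs of Tlr8. As for Tlr7, resident-macrophage-like cells were highest, at 19.9, 19.2 and 21.8 CPM. Classical-monocyte-like cells had 10.9, 7.54 and 7.11 CPM of Tlr8, foamy-macrophage-like cells 6.49, 3.43 and 6.99 CPM and non-classical-monocyte-like cells 5.86, 3.32 and 8.36 CPM, and the intervals of these last 3 overlapped in each library.

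Tlr13, a receptor of mice that humans lack, was a myeloid receptor in these data. Neutrophils had 68.1, 104 and 117 CPM, macrophages and monocytes 56.5, 44.8 and 45.7 CPM, and dendritic cells 12.1, 11.6 and 12.3 CPM. B cells held 6, 16 and 14 UMIs, or 0.320, 0.565 and 1.51 CPM. Non-classical-monocyte-like cells were the highest macrophage subset at 93.3, 85.8 and 76.1 CPM, which is the reverse of their place for Tlr4. Resident-macrophage-like cells had 31.6, 27.1 and 44.4 CPM of Tlr13.

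Among the compared classes Tlr3 was highest in dendritic cells, at 53.5, 61.2 and 31.3 CPM against 7.15, 4.97 and 8.22 CPM in macrophages and monocytes and 1.60, 1.70 and 2.37 CPM in B cells. Neutrophils held 0, 1 and 0 UMIs of it. A count of 0 there allows up to 3 UMIs. Of the stromal-like cells, which were too few to compare, fibroblast-like cells had 24.8, 16.2 and 18.6 CPM (5, 13 and 30 UMIs), above macrophages and monocytes. Endothelial-like cells of the WD library had 34.4 CPM from 9 UMIs, near the dendritic cell level of that library. Among dendritic cells it was a gene of cDC1-like cells, the subset that takes up dead cells and presents their antigens to CD8 T cells. These had 127 CPM (112 to 143), 155 (134 to 179) and 120 (101 to 141), with a Tlr3 UMI in 65.4%, 75.3% and 66.2% of the cells, against 1.28%, 1.22% and 1.60% of B cells. Cd209a cDC2-like cells had 5.77, 1.88 and 3.94 CPM, and the mature-like cells, named from Ccr7 and Fscn1, held 0, 0 and 1 Tlr3 UMIs.

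Tlr9, the DNA receptor, was detected with few UMIs. Whole libraries held 73, 114 and 123 UMIs of it. Macrophages and monocytes held 28, 19 and 41 UMIs (1.58, 1.63 and 1.38 CPM) and B cells 19, 31 and 20 UMIs (1.01, 1.10 and 2.15 CPM). The order of these classes cannot be read from such counts.

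Myd88 was found in every compared class. Neutrophils had 105, 123 and 135 CPM, macrophages and monocytes 82.7, 78.7 and 72.9 CPM, dendritic cells 76.8, 82.2 and 78.7 CPM and B cells 22.8, 18.8 and 22.7 CPM. Macrophages and dendritic cells overlapped in their intervals in every library. B cells were at 27.6%, 23.9% and 31.2% of the macrophage level, above the median of 1.57%, 1.31% and 1.91% of the macrophage markers. T cells had 24.8, 20.1 and 11.1 CPM from 10, 20 and 5 UMIs, or 29.95%, 25.5% and 15.3% of the macrophage level, and their intervals overlapped those of B cells in each library. Among the myeloid subsets Myd88 was higher in classical-monocyte-like cells (105, 111 and 129 CPM) and non-classical-monocyte-like cells (112, 115 and 112 CPM) than in foamy-macrophage-like cells (61.1, 51.0 and 53.4 CPM) and resident-macrophage-like cells (64.6, 48.8 and 66.4 CPM). Mature-like dendritic cells had 36.9, 22.1 and 32.9 CPM, below the cDC1-like (74.3, 78.5 and 101 CPM) and Cd209a cDC2-like cells (95.2, 111 and 87.4 CPM).

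Surface and endosomal receptors were set against each other within each class as the share of endosomal UMIs among the UMIs of the 8 receptors. This share does not depend on scaling. In macrophages and monocytes the endosomal share was 27.1% (Clopper-Pearson 95% interval 26.3 to 27.9), 28.5% (27.4 to 29.6) and 28.1% (27.5 to 28.8), the narrowest spread over libraries of the compared classes. Neutrophils had 16.5% (13.5 to 19.8), 20.8% (18.7 to 23.0) and 18.1% (15.6 to 20.8). B cells had 51.1% (48.2 to 53.9), 51.0% (48.7 to 53.4) and 59.8% (56.4 to 63.1), so that the WD library lay above the control and HHcy libraries. Of their 596, 864 and 340 surface UMIs, 259, 235 and 156 were of Tlr2. In B cells Tlr2 was at 3.03%, 2.19% and 4.56% of its macrophage level, within the range of the macrophage markers there. The part of RNA from other cells in the B cell share was not tested. Dendritic cells had 39.3% (36.7 to 42.0), 46.5% (42.7 to 50.3) and 32.7% (30.1 to 35.4), with no overlap between libraries.

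Among dendritic cells and among macrophages and monocytes, the subsets differed more than the libraries did. Within dendritic cells the endosomal share was 74.0%, 78.7% and 71.3% in cDC1-like cells, where Tlr3 made up most of it, and 12.9%, 15.4% and 15.9% in Cd209a cDC2-like cells, where Tlr2 dominated. Resident-macrophage-like cells had 36.5%, 41.8% and 40.8%, non-classical-monocyte-like cells 27.8%, 30.6% and 33.1%, foamy-macrophage-like cells 24.0%, 23.2% and 21.4%, and classical-monocyte-like cells 19.5%, 22.0% and 19.9%. In B cells the share was 60.7%, 57.0% and 63.1% in B1-like cells and 38.3%, 50.9% and 54.3% in naive-follicular-like cells. Immature-like B cells had 44.7%, 32.2% and 59.2%, the widest range of these 3, and there the HHcy library was the lowest. The part of RNA from other cells in the shares of B cell subsets was not tested either. A UMI of both kinds was found in 59.6%, 57.5% and 63.7% of single macrophages and monocytes, and in 5.64%, 4.30% and 8.24% of B cells, which also had lower receptor levels.

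**Figure D3:**
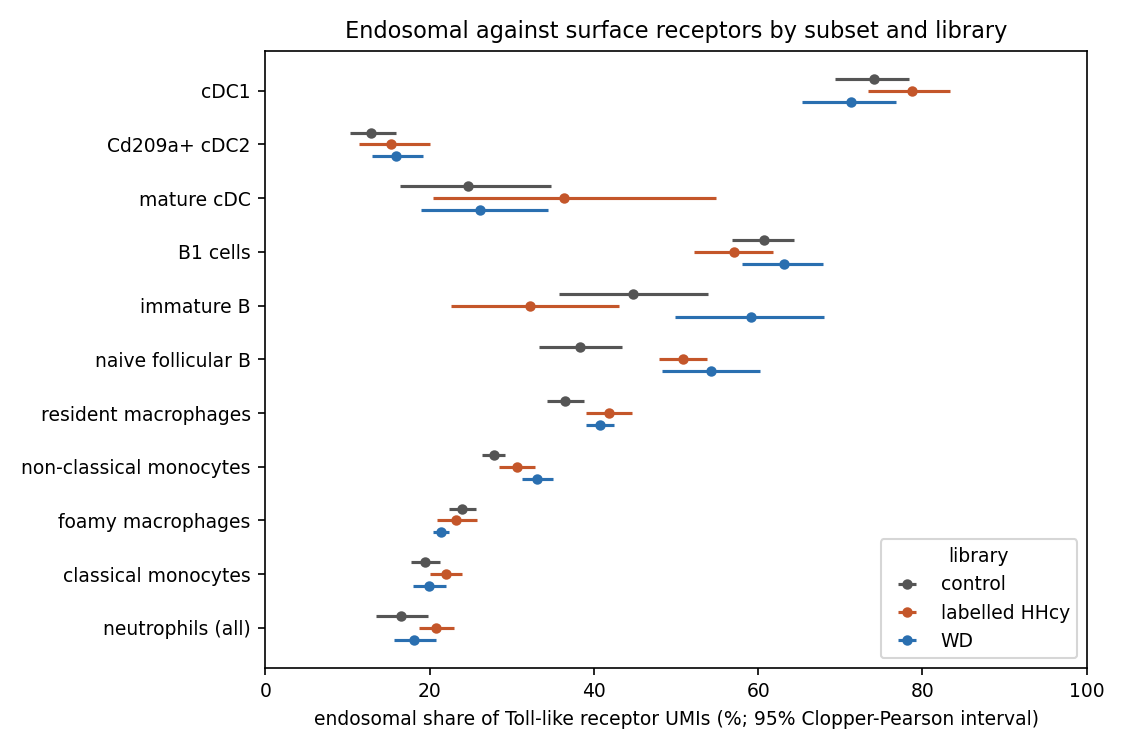
Endosomal share of Toll-like receptor UMIs in percent (x axis, 95% Clopper-Pearson interval) for the subsets of the compared classes (y axis), with 1 point per library; subset names stand for clusters named from markers. The cDC1-like cells lie at 71.3% to 78.7%, far to the right of the Cd209a cDC2-like cells at 12.9% to 15.9%.

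The HHcy and the WD libraries were next compared with the control library within each class. Both comparisons share the control library, so that its own deviations enter both. A gene was called when its CPM differed by 1.5-fold or more, among genes with at least 50 UMIs over the 2 libraries. This is a rule of size and no test. Over B cells, macrophages and monocytes, dendritic cells and neutrophils, 60 member ratios had enough UMIs, and 8 were past 1.5-fold, 5 higher and 3 lower. Over the same 8 comparisons 10.5% of the 71017 ratios of all genes were past it (4.32% higher and 6.2% lower). In T cells no member had enough UMIs.

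In macrophages and monocytes, 0 of 9 members were past 1.5-fold in the HHcy and 0 of 10 in the WD library, against 6.79% (3.2% higher and 3.59% lower) and 7.91% (4.15% and 3.75%) of all genes tested. The largest ratios were those of Tlr3 in the HHcy library, at a log2 ratio of -0.52 (95% interval -0.998 to -0.065), and Tlr1 in the WD library, at 0.41 (0.21 to 0.60). Tlr2 was lower in both by less than the rule, at -0.27 (-0.32 to -0.21) and -0.31 (-0.35 to -0.27). Tlr13 was at -0.34 and -0.31, and Cd14 at 0.10 and 0.20. The subset mix of this class differed between libraries, with foamy-macrophage-like cells at 343 of 1980 cells in the control and 804 of 2668 in the WD library. Inside resident-macrophage-like cells, Tlr1 had a log2 ratio of 0.76 (0.29 to 1.26) in the WD library, and Tlr2 of -0.62 (-0.77 to -0.47) in the HHcy library. In classical-monocyte-like cells Tlr1 of the WD library went the other way, at -0.59 (-1.26 to 0.06) from 54 and 33 UMIs. These were the 3 past 1.5-fold of 63 member ratios within subsets of this class. For all genes, the share past it within these subsets was not computed.

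In B cells, 2 of 7 members were past 1.5-fold in the WD library, Tlr7 and Cd14, both higher, against 5.87% of all genes tested (2.65% higher and 3.22% lower). Tlr7 rested on 565 UMIs in the control, 805 in the HHcy and 448 in the WD library. Its level of 48.2 CPM in the WD library lay above 30.2 and 28.5 CPM in the others, with no overlap of the intervals. The log2 ratio of WD over control was 0.68 (0.50 to 0.86), a fold of 1.60, and that of HHcy over control -0.08 (-0.24 to 0.07). Within the 3 larger subsets the WD library was again the highest. Tlr7 had 31.8, 30.5 and 46.4 CPM in B1-like cells, 33.3, 24.1 and 52.0 CPM in immature-like cells and 29.6, 29.5 and 46.1 CPM in naive-follicular-like cells, with WD log2 ratios of 0.55, 0.64 and 0.64. The ratio in B1-like cells was short of 1.5-fold. In immature-like cells the control and WD levels, from 47 and 63 UMIs, overlapped in their intervals, and the HHcy log2 ratio was -0.47 (-1.22 to 0.25). Of 27 member ratios within B cell subsets 6 were past 1.5-fold, and the share of all genes there was not computed. Among the 6 were Tlr1 in B1-like cells of the HHcy library, at 0.70 (0.28 to 1.13), and Cd14 of the WD library in B1-like and naive-follicular-like cells, at 0.69 in each.

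When every B cell was thinned to 1000 UMIs, 2.58%, 2.70% and 4.90% of the cells held a Tlr7 UMI, against 19.6%, 18% and 26.1% without thinning. Of the T cells, 2.82%, 4.62% and 7.41% held one without thinning. Cd14 in B cells had a log2 ratio of 0.65 (0.36 to 0.95) in the WD library, from 221 and 172 UMIs. It fell short of 1.5-fold under 6 of the alternatives tried, for example at 0.20 with thinned cells and 0.29 with the wider mitochondrial limit. The 20 macrophage markers, each with a UMI in B cells of every library, summed to 430, 459 and 633 CPM there, 2.25%, 1.67% and 2.71% of their level in macrophages. They were thus also highest in the B cells of the WD library, and their part in the Tlr7 and Cd14 ratios was not tested. In the macrophages themselves Tlr7 had a log2 ratio of -0.17 in the WD library.

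The HHcy library had 1 of 8 members past 1.5-fold in B cells, against 11.7% of all genes tested (4.27% higher and 7.46% lower). This was Tlr2, at 8.31 CPM beside 13.8 CPM in the control, a log2 ratio of -0.73 (-0.996 to -0.475). It was -0.44 in B1-like and -1.11 in naive-follicular-like cells, the latter being 73.5% of the B cells of the HHcy library and 35.0% of those of the control. With all barcodes of more than 1 lineage kept the ratio was -0.34, and with cells thinned to 1000 UMIs it was -0.44, both short of 1.5-fold. In the control and HHcy libraries, which this ratio compares, Tlr2 levels in B cells were below those in T cells, and the part of RNA from other cells was not tested.

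**Figure D4:**
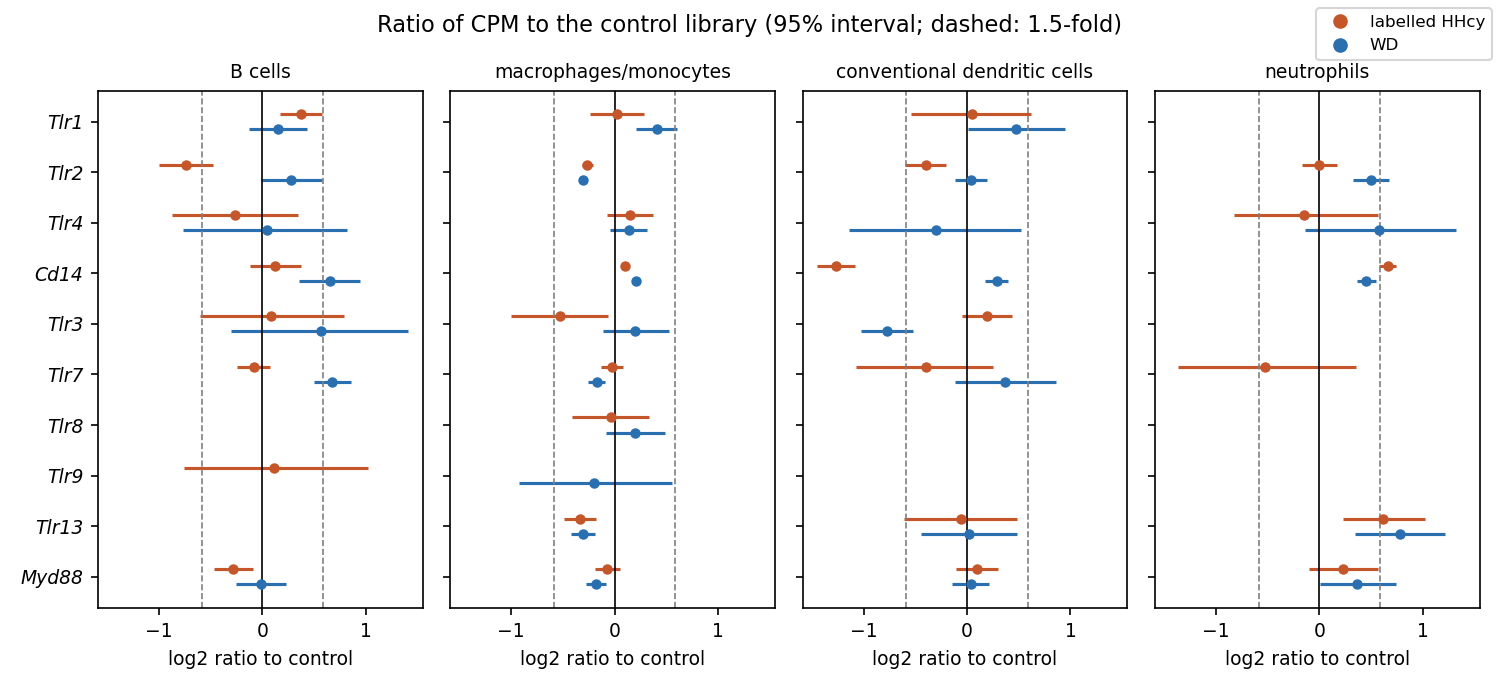
Log2 ratio of CPM to the control library (x axis, 95% interval; dashed lines at 1.5-fold) for each of the 10 genes (y axis) with at least 50 UMIs, in 4 classes, for the library labelled HHcy and the WD library. In macrophages/monocytes every point lies between the dashed lines; Cd14 in conventional dendritic cells of the HHcy library lies farthest from 0, at -1.26.

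In dendritic cells, 1 of 7 members was past 1.5-fold in the HHcy library, against 10.2% of all genes tested (5.98% higher and 4.23% lower). It was Cd14, with 1261 UMIs (191 CPM) in the control, 314 UMIs (79.4 CPM) in the HHcy and 1515 UMIs (233 CPM) in the WD library. The HHcy library was the low one, at a log2 ratio of -1.26 (-1.45 to -1.08), and the WD ratio was 0.29 (0.18 to 0.40). The HHcy ratio ranged from -0.61 with barcodes of more than 1 lineage kept to -2.05 with thinned cells. Cd209a cDC2-like cells had 338, 110 and 315 CPM and cDC1-like cells 127, 54.5 and 85.6 CPM of Cd14, but mature-like cells 65.0, 69.2 and 133 CPM, where the HHcy library was not lower. The mature-like cells held 67, 25 and 186 Cd14 UMIs. Of these, 1 control cell held 61.2% and 8 WD cells held 73.1%. Without cells of 10 or more Cd14 UMIs the levels were 26.3, 69.2 and 42.6 CPM, so those of all mature-like cells rest on few cells. The WD log2 ratio over all mature-like cells was 1.03 (0.62 to 1.46). Of 24 member ratios within dendritic cell subsets 4 were past 1.5-fold, and the share of all genes there was not computed. The 4 included this WD ratio of Cd14 in mature-like cells, and Cd14 of the HHcy library in Cd209a cDC2-like (-1.62) and cDC1-like cells (-1.22). The last was Tlr2 in mature-like cells of the HHcy library, at -0.64 (-1.64 to 0.24) from 58 and 13 UMIs.

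The share of dendritic cells with a Cd14 UMI did not follow the level, at 37.7%, 39.0% and 45.6%, beside 9.13%, 9.66% and 13.2% of B cells. The UMIs were concentrated in few cells. Dendritic cells with 10 or more Cd14 UMIs numbered 35 (7.99%), 7 (2.65%) and 42 (11.1%) and held 72.1%, 38.5% and 77.6% of the Cd14 UMIs of the class. Since they are picked by their Cd14 count, this describes the spread over cells and adds no support to the ratio. They were also deeper, with medians of 21064, 26716 and 23051.5 UMIs against 13797, 14973 and 15040 in the other dendritic cells, and the part of depth in these counts was not tested. They held UMIs of a median of 5, 4 and 7 of the 9 genes counted as macrophage genes, against 2, 3 and 3 in the others. The 20 macrophage markers summed to 2426, 2664 and 3494 CPM in dendritic cells and were lowest in the control, not in the HHcy library. Their part in the Cd14 ratio was not tested.

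**Figure D5:**
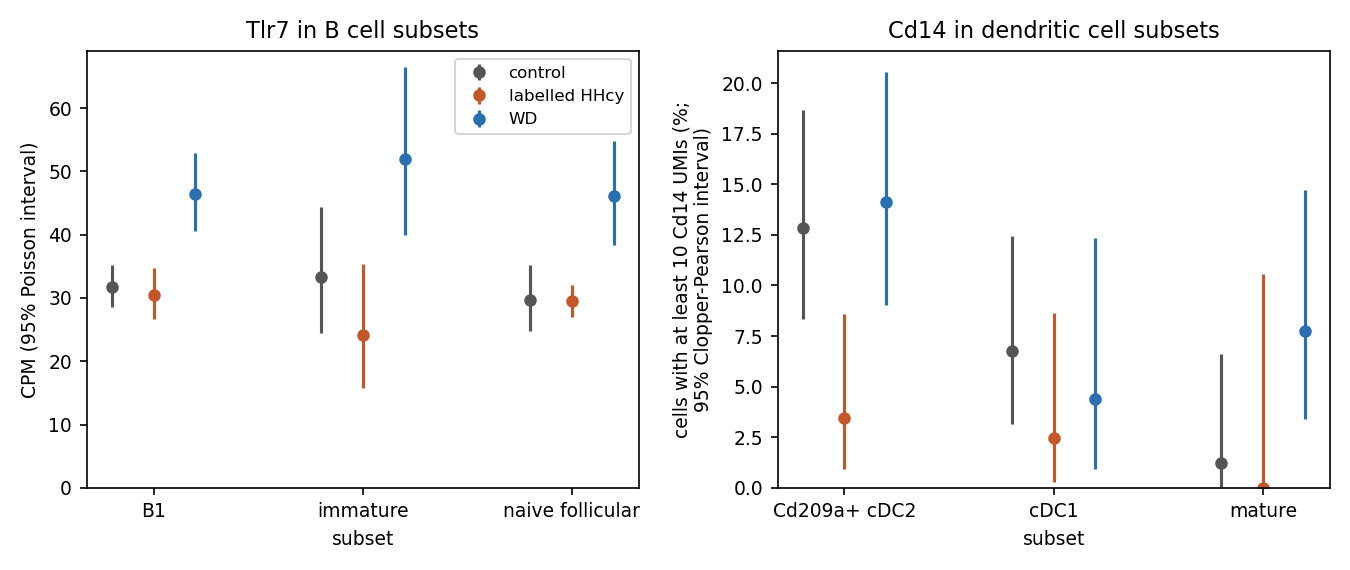
Left, level of Tlr7 (CPM, 95% Poisson interval) in 3 B cell subsets (named from markers) by library, the WD library being highest in each. Right, share of cells with at least 10 Cd14 UMIs (percent, 95% Clopper-Pearson interval) in 3 subsets of conventional dendritic cells by library, at 12.8%, 3.45% and 14.1% in Cd209a cDC2-like cells.

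In the WD library 1 of 8 members was past 1.5-fold in dendritic cells, against 8.6% of all genes tested (4.1% higher and 4.5% lower). Tlr3 had 354, 242 and 204 UMIs, or 53.5, 61.2 and 31.3 CPM, a WD log2 ratio of -0.77 (-1.03 to -0.52). The cDC1-like cells held 254, 194 and 143 of these UMIs, and most of the others lay in dendritic cells of no named subset. The cDC1-like cells were 30.4% of the dendritic cells of the control, 30.7% of the HHcy and 17.9% of the WD library. Within the cDC1-like cells the WD log2 ratio of Tlr3 was -0.08 (-0.38 to 0.22), and with the same mix of sub-clusters in both libraries it was -0.25 for the class.

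In neutrophils, 2 of 6 members were past 1.5-fold in the HHcy library and 1 of 5 in the WD library, against 30.9% (6.71% higher and 24.2% lower) and 19.5% (6.39% and 13.1%) of all genes tested. In the HHcy library these were Cd14, at a log2 ratio of 0.66 (0.58 to 0.75), and Tlr13, at 0.61 (0.23 to 1.02), and in the WD library Tlr13, at 0.78 (0.35 to 1.22). Cd14 in the WD library was at 0.45. All were higher, while the median log2 ratio of all genes in neutrophils was -0.21 in the HHcy and -0.06 in the WD library. Relative to that median, Cd14 and Tlr13 had 0.88 and 0.83 in the HHcy library. With barcodes of more than 1 lineage kept, Cd14 had 0.03 and Tlr13 -0.021 in the HHcy library, and Tlr13 had -0.0049 in the WD library. With cells thinned to 1000 UMIs these 3 calls were also lost, with Cd14 at 0.51 and Tlr13 at 0.47 in the HHcy library and Tlr13 at 0.37 in the WD library. They were lost as well with the same mix of sub-clusters in both libraries. Under that mix Tlr4 (-0.70) and Tlr7 (-0.95) of the HHcy library were past 1.5-fold, both lower.

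The neutrophils fell into 2 clusters in different proportions. Cells led by Camp, Ngp and Ltf, genes of granule proteins made in immature neutrophils, were 42.4% of the neutrophils of the control and 18.4% and 17.0% of those of the HHcy and WD libraries. They had 694, 950 and 925 CPM of Cd14, and the cells led by Retnlg, G0s2 and Cstdc4 had 2214, 2720.1 and 2367 CPM. Within these clusters the log2 ratios of Cd14 were 0.45 and 0.30 in the HHcy and 0.41 and 0.10 in the WD library, all short of 1.5-fold. Tlr13 had 112, 133 and 142 CPM in the cells led by Retnlg, with log2 ratios of 0.24 and 0.34. For all genes, the share past 1.5-fold within the clusters was not computed. Of 16 member ratios within the clusters 2 were past 1.5-fold, both lower in the HHcy library. They were Tlr2 in the cells led by Camp, at -0.72 (-1.18 to -0.27), and Tlr4 in those led by Retnlg, at -0.78 (-1.49 to -0.03). Tlr2, Tlr4 and Myd88 were also higher in these cells than in those led by Camp in each library, for example Tlr2 at 661, 524 and 729 CPM against 189, 115 and 238 CPM. The 20 macrophage markers in neutrophils summed to 4834, 5470.0 and 4735 CPM, highest in the HHcy library. Their part in these ratios was not tested.

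The other Toll-like receptors were scarce. Tlr6, the paralog of Tlr1 and also a partner of TLR2, was highest in neutrophils at 29.6, 39.0 and 31.1 CPM and had 8.89, 9.60 and 8.35 CPM in macrophages and monocytes. In B cells of the WD library it was past 1.5-fold, at a log2 ratio of 0.70 from 52 and 42 UMIs. Tlr5, the flagellin receptor, was mostly found in resident-macrophage-like cells, at 12.8, 14.6 and 13.8 CPM, and at most 4.74 CPM in the other named subsets of macrophages and monocytes. Tlr11, a receptor for profilin of protozoan parasites, was, like Tlr3, highest in cDC1-like cells, at 28.9, 34.4 and 30.2 CPM. Its log2 ratio over all dendritic cells was -0.69 in the WD library, where cDC1-like cells were fewer. Tlr12, its partner, had 9.47, 6.41 and 7.56 CPM in cDC1-like cells. It also had 9.63, 23.1 and 2.33 CPM in foamy-macrophage-like cells (43, 47 and 27 UMIs), and over all macrophages and monocytes its WD log2 ratio was -1.25.

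The genes around the receptors were read by the same rule, against the shares of all genes given above for each class and library. Among 16 genes of folding, trafficking and endosomal processing, all were tested in macrophages and monocytes and 0 were past 1.5-fold in either library. Unc93b1, named outside the rule for named genes because the endosomal receptors need it, had 409, 410.1 and 439.6 CPM in macrophages and monocytes, 309, 309 and 328 CPM in B cells, and 269, 287 and 233 CPM in dendritic cells. In the WD library 2 of the 16 were higher in B cells, namely the protease Ctsl (log2 ratio 0.76) and the endosomal GTPase Rab7b (0.69). In dendritic cells of the WD library 3 were higher, Ctsl (0.72), the exonuclease Pld3 (0.70) and the protease Lgmn (0.67), and Rab7b (-0.62) was lower. In neutrophils of the HHcy library 5 of 14 were lower, among them Lgmn (-1.22), the exonuclease Pld4 (-1.14) and the ribonuclease Rnaset2b (-0.85), where 24.2% of all genes were lower and the median of the list was -0.27 beside -0.21 for all genes.

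Of 7 surface partners of the receptors, 0 of 7 tested in macrophages and monocytes were past 1.5-fold in either library. In B cells of the HHcy library 1 of 6 was, the integrin chain Itgam at -1.30. In dendritic cells 1 of 6 was lower in each library, Ly96, which encodes MD-2, at -0.83 in the HHcy and the scavenger receptor Cd36 at -0.61 in the WD library. In neutrophils Lbp, the lipopolysaccharide-binding protein, was at -1.22 in the HHcy (1 of 6 tested) and -1.09 in the WD library, where Ly96 was at 0.61 (2 of 4 tested).

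Of 20 adaptors and kinases, 1 was lower in macrophages and monocytes of the HHcy library (Ikbke, -0.64) and 0 were past the rule in the WD library. In B cells 1 was lower in the HHcy library (Ticam2, the bridging adaptor of TLR4, -0.68) and 0 were called in the WD library. In dendritic cells 0 of 19 were past it in the HHcy library, and in the WD library the kinase Ikbke was higher (0.67) and Tirap, which bridges TLR2 and TLR4 to MYD88, lower (-0.60). In neutrophils of the HHcy library 4 of 13 were lower, among them the kinases Chuk (-0.98), Irak1 (-0.92) and Ikbkb (-0.80), where 24.2% of all genes were. In those of the WD library Ikbkb was lower (-0.68) and Tirap higher (0.61). Inhibitors, of which 14 of 15 are in the matrices, gave few calls. They were Socs1 in B cells of the HHcy library (-0.67), Il1rl1 in macrophages and monocytes of the WD library (-0.71), Cd300a in dendritic cells of both (0.67 and 0.67) and Lilrb4a in dendritic cells of the HHcy library (-0.77).

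Of 9 transcription factors of the pathway, Irf7 was the only 1 past 1.5-fold in any of these 4 classes. Irf7 is itself induced by interferon and drives interferon genes downstream of TLR7 and TLR9. It had 18.5, 30.4 and 40.9 CPM in B cells, 52.0, 105 and 108 CPM in dendritic cells and 93.8, 195 and 151 CPM in neutrophils, and the control library was lowest each time. The log2 ratios in the HHcy and WD libraries were 0.72 and 1.15 in B cells, 1.01 and 1.06 in dendritic cells, and 1.06 and 0.69 in neutrophils. Macrophages and monocytes had Irf7 at 154, 166 and 185 CPM, with log2 ratios of 0.11 and 0.26.

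Of 18 response genes of the receptors, 17 were tested in macrophages and monocytes, where 1 was lower in the HHcy library (the cytokine subunit Il12b, -1.81) and 0 were called in the WD library. B cells of the WD library had 5 of 13 higher, among them Acod1 (1.21), the itaconate-producing enzyme of activated macrophages, and the chemokines Ccl3 (0.79) and Ccl4 (0.78). Macrophage markers in the same B cells are given above, and the part of RNA from other cells in these ratios was not tested. B cells of the HHcy library had 1 of 16 higher (Acod1, 0.87) and 2 were lower (Il6, -0.98, and Cxcl1, -0.68).

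In dendritic cells of the HHcy library 6 of 16 response genes were lower, among them Ifnb1 (-1.62), Il1a (-1.09) and Ccl5 (-1.07), and Acod1 was higher (0.74, from 25 and 25 UMIs). The median of this list was -0.48, beside 0.06 for all genes. In the WD library 3 of 17 were higher, Acod1 (2.69), the chemokine Cxcl1 (1.11) and Il10 (0.91), and Ccl5 (-0.64) was lower. In neutrophils 3 of 12 were higher and 1 lower in the HHcy library and 4 of 12 were higher in the WD library. Higher were Cxcl10 (1.15 and 1.11), Il1a (0.64 and 0.69) and, in the HHcy library, Il1b (0.61). Acod1 was at 0.69 in the WD library, and Cxcl1 was lower in the HHcy library (-0.77).

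A list of 20 genes that respond to tissue dissociation was read beside these. In B cells of the HHcy library 8 of 20 were lower, among them Atf3 (-1.54), Hspa1b (-1.53) and Hspa1a (-1.05). In neutrophils of the HHcy library 6 of 20 were lower, beside 24.2% of all genes, among them Hspa1b (-1.38) and Jun (-0.95), and Socs3 (0.64) was higher. T cells of the HHcy library had 10 of 19 lower, beside 9.45% of all genes, with a median of -0.61 beside -0.02 for all genes. In dendritic cells Hspa1b (-1.20 and -1.02) and Dnajb1 (-0.62 and -0.59) were lower in both. Macrophages and monocytes had 1 lower in the HHcy library (Hspa1b, -0.84) and 0 in the WD library. B cells of the WD library, where Tlr7 was higher, had 0 of 20 past 1.5-fold and a median of -0.00. The part of dissociation in the ratios was not tested.

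Across the 15 sums of 5 classes by 3 libraries, the genes most like each member in log2(CPM + 1) were sought among genes of at least 10 CPM on average. Points of 1 class share cell type and points of 1 library share depth, so the coefficients are descriptions. Cd14 ran with the chemokine Ccl3 (Pearson r = 1.00), with Gda (0.99) and with Tlr13 (0.99), itself 1 of the 10 genes. Tlr13 ran with Gda, Igsf6 and Ccl3 (all 0.99). Tlr2 ran with Gm21188, the immediate early gene Ier3 and 6430548M08Rik (all 0.99). Tlr4 ran with the cytokine Il1a (0.97), the coagulation factor F5 (0.97) and Mtmr6 (0.96), and Myd88 with the kinase Fgr (0.99), Hlx (0.98) and Id1 (0.98).

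The endosomal receptors other than Tlr13 ran with other genes. Tlr3 ran with 2 dendritic cell genes, Ccl17 (0.98) and Cd209a (0.93), and with Arsb (0.93), although within dendritic cells Tlr3 and Cd209a lay in different subsets. Tlr7 ran with Apobec1 (0.92), the cholesterol exporter Abca1 (0.92) and Blvrb (0.90). Tlr8 ran with the lysosomal protease Ctsb (0.96), the macrophage marker Adgre1 (0.96) and Rab1a (0.95). Tlr9, with few UMIs, ran with Bloc1s4 (0.86), Klf4 (0.85) and Polr2i (0.83), and Tlr1 with Dynlt3 (0.86), Zfp120 (0.83) and Pja2 (0.83). Between members, Tlr13 with Cd14 (0.99) and Tlr2 with Tlr13 (0.98) were the highest pairs, and Tlr1 with Myd88 (-0.33) was the lowest.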

How the data were processed

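The deposited matrices hold raw UMI counts per gene and barcode, with no normalization by the authors. Libraries were made with the Chromium 3′ v3 kit per the labels' protocols. Per the file headers, counts were written by Cell Ranger 4.0.0. The submitters' processing notes name Cell Ranger 2.2.0 and mm10, and the sources used here do not explain the difference. Columns of other samples numbered 0, and empty droplets were not analysed here.

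Barcodes with at least 200 genes and at most 10% mitochondrial UMIs were kept. Barcodes reaching the limits of 2 or more lineages (7 B, 7 T/NK, 13 myeloid, 8 neutrophil or 9 stromal marker genes, set after seeing the data) were left out as multiplets, which cannot mark multiplets of 1 lineage. The 3 libraries were clustered together (scanpy 1.11.5, Leiden at resolution 1 for classes and 0.5 for subsets, 2000 variable genes, 30 components, 20 neighbours, Python 3.11.15), with all Toll-like receptors, Cd14 and Myd88 left out. Clusters were named when at least 3 markers were detected, and 15803 of 16846 cells were in named classes.

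Counts were summed per class and library and divided by the class total (CPM). No p-value was computed, since each group had 1 library. Ratios carry exact conditional binomial intervals. The ratio calculation was tested on simulated class sums with counting error only. Such sums do not hold a concentration of UMIs in few cells, so the simulation does not cover it. Named are all 10 members, for each the 3 most alike genes, all other Toll-like receptors, and up to 3 genes each way among those past 1.5-fold in each pathway list. The members and lists were chosen with earlier results of these data known. Alternatives covered the mitochondrial limit, multiplets, clustering, naming, thinning, scaling, sub-cluster mix, the UMI minimum and the fold.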

Additional observations from a re-analysis of the deposited data

Results flagged for a closer look

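Cd14 moved in opposite directions in 2 classes under the same contrast. In the library labelled HHcy its log2 ratio to the control was 0.66 in neutrophils and -1.26 in dendritic cells. The difference between the classes was not tested, since each group had 1 library.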

How the results depend on the processing

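No paired analysis was possible because each group had 1 library and no result comes from a test. Leaving out cells with 10 or more Apoe UMIs and lowering each lineage limit by 2 genes were chosen after seeing the data. Of 96 recomputed endosomal shares, 84 stayed within the counting interval of the reported value, as did 511 of 571 log2 ratios.

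Tlr7 in B cells of the WD library stayed past 1.5-fold under each alternative that kept this fold (log2 ratio 0.65 to 1.04), and so did Cd14 in dendritic cells of the HHcy library (-0.61 with multiplets kept to -2.05 with cells thinned). Cd14 in B cells of the WD library fell short with the 20% mitochondrial limit (0.29), multiplets kept (0.50), cells named by their own markers (0.47), thinning (0.20), the same sub-cluster mix (0.55) and lowered lineage limits (0.54). With multiplets kept, Tlr13 in neutrophils reversed, to -0.021 in the HHcy and -0.0049 in the WD library, and Cd14 there had 0.03 and -0.05.

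Among endosomal shares, thinning to 1000 UMIs gave 46.8% in B cells and 31.8% in macrophages and monocytes of the HHcy library, and 34.4% in dendritic cells and 25.8% in neutrophils of the control. Naming cells by their own markers gave 44.3%, 55.4% and 38.1% in dendritic cells, and Leiden resolution 2 gave 35.6% (control) and 29.3% (WD). Clustering each library on its own gave 74.9% in dendritic cells of the HHcy library. Keeping multiplets gave 24.6% and 22.8% in neutrophils of the HHcy and WD libraries. The cause was not tested.

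Counts of members past the fold also moved. In B cells of the HHcy library (1 reported) they were 0 with multiplets kept, 2 with at least 20 UMIs and 0 at a fold of 2. In those of the WD library (2 reported) they were 1 with the 20% mitochondrial limit, with own markers and with lowered lineage limits, 4 with at least 20 UMIs and 0 at a fold of 2. In macrophages and monocytes (0 reported) they were 1 in the HHcy library with multiplets kept, own markers or lowered limits, and 1 in the WD library when thinned. In dendritic cells (1 reported in each) they were 3 in the HHcy library with each library clustered on its own. In the WD library they were 2 with that clustering or own markers, 3 with at least 20 UMIs, and 0 when thinned, with the same sub-cluster mix or at a fold of 2. In neutrophils of the HHcy library (2 reported) they were 0 with multiplets kept or at a fold of 2 and 1 when thinned. With the same sub-cluster mix the count there stayed at 2, but the members were Tlr4 (-0.70) and Tlr7 (-0.95) in place of Cd14 and Tlr13. Thinning also changed which members were called. In neutrophils Cd14 and Tlr13 fell short, Myd88 was past the fold in the HHcy library (0.80) and Tlr2 in the WD library (0.74), and in B cells of the HHcy library Tlr1 was (0.81) and Tlr2 was not. In neutrophils of the WD library (1 reported) the count was 0 with multiplets kept, the same sub-cluster mix or a fold of 2. It was 2 with separate clustering or median scaling, and 4 with lowered lineage limits. The cause was not tested. Low UMI counts limit Tlr9 everywhere, all members in T cells, and Tlr1 and Tlr3 in neutrophils.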
